A study of Homo sapiens with 23 samples.

Results

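The 7 genes described here were grouped as filaggrin processing and deimination enzymes: ASPRV1, CASP14, BLMH, GGCT, PADI1, PADI2 and PADI3. They were taken by gene symbol from the 27589 genes of the deposited table, and all 7 were found. The samples were subcutaneous tumours grown from SCC-13, an established line of human squamous cell carcinoma of the skin, in NCG mice, which lack functional lymphocytes. The knockout (KO) group held 11 tumours of cells with a knockout of human Flower (hFWE, gene symbol CACFD1), a transmembrane protein. They came from line 2F7 with 3 tumours and lines 2B8 and 1G10 with 4 each. The wild-type (WT) group held 12 tumours with intact hFWE, 4 each from lines 5B2, 6C9 and 6C10. Every tumour grew from cells injected in a Matrigel mixture and was harvested on day 26, and RNA-seq libraries were made from 500 ng of RNA. The labels name the lines by code only, without saying how each was derived, and each line has 1 genotype. Whether any mouse bore more than 1 tumour is not stated either, and the p-values below reflect the spread among tumours, which may in part be technical. Tumours are named below by genotype, line and specimen number.

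Filaggrin is made in the granular layer of the epidermis as profilaggrin, a large precursor of tandem repeats stored in keratohyalin granules. Proteases cut the precursor into monomers that bundle keratin filaments, and higher up in the cornified layer the monomers are broken down to free amino acids and their derivatives, which hold water. ASPRV1 is a retroviral-like aspartic protease of the skin, and caspase-14, encoded by CASP14, is a caspase of cornifying keratinocytes that takes part in filaggrin breakdown rather than in apoptosis. BLMH is bleomycin hydrolase, a cysteine aminopeptidase that releases single amino acids, citrulline among them, from filaggrin peptides. GGCT is gamma-glutamylcyclotransferase, which forms 5-oxoproline from gamma-glutamyl amino acids. The PADI enzymes turn peptidyl arginine into citrulline, which loosens filaggrin from keratin. PADI1 and PADI3 are the deiminases best known in epidermis and hair follicle, and PADI2 is found in many tissues.

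Promoter windows of 300 bases, from 250 before to 50 after the annotated start, were available from RefSeq (GRCh38.p14) for 5 of the 7 genes. The windows of BLMH, CASP14 and PADI1 are shown because the BLMH and CASP14 levels went together across tumours of ordinary depth and PADI1 went the other way from BLMH, as given further on. They were searched on both strands for an AP-1 motif (TGANTCA), a GC box (GGGCGG), an E-box (CACGTG) and the core of the interferon response element, and capitals mark the matches. The BLMH window is chr17:30291895-30292194 on the minus strand, whose start lies 112 bases inside the start in the deposited table. The CASP14 window is chr19:15049230-15049529 and the PADI1 window is chr1:17204878-17205177, both on the plus strand and both placed at the start in the table.
BLMH: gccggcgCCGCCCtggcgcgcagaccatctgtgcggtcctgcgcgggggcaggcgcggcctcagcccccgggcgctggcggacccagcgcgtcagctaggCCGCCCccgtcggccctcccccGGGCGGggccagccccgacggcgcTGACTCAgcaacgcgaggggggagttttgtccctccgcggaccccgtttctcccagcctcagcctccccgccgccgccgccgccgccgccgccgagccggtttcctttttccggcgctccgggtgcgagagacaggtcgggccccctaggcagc
CASP14: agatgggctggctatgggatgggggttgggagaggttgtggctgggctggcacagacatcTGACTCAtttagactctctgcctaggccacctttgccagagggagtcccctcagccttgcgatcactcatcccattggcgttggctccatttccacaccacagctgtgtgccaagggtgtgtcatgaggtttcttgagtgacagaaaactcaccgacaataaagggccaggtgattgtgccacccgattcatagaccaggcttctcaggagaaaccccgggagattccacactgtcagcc
PADI1: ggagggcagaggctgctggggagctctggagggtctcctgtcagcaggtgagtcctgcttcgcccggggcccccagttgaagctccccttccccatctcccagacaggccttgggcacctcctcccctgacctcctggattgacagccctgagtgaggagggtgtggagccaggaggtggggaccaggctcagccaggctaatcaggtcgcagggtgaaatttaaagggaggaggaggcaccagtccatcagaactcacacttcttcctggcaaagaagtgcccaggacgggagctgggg
BLMH held 1 AP-1 match and 3 GC boxes, CASP14 held 1 AP-1 match, and PADI1 held none of the 4 motifs. The PADI2 window held 6 GC boxes and no other match. Over all 35116 windows of this length, 7.71% held an AP-1 match, 45% a GC box, 7.26% an E-box and 3.57% the interferon core. The BLMH window was 78.3% G and C and the CASP14 window 55.3%, against a median of 58.7% over all windows. The RefSeq windows listed for ASPRV1 lie at least 124642 bases from its start in the table and were not used.

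CACFD1, the targeted gene, had a lowest, median and highest normalized value of 167, 277 and 370 in KO tumours, against 286, 370 and 432 in WT tumours. Its log2 difference was -0.45 (SE 0.11, adjusted p = 0.227 by limma). Every one of the 11 KO tumours was under the WT median, as for 2.78% of all tested genes. The highest KO value, 369.51 in 2F7 specimen 5538, was only just under the WT median of 369.57. The transcript was still present in KO tumours, and the sources used here do not give the position of the edit. The value deposited for each gene is a normalized read abundance with no length correction. Estimated depth was between 13082214 and 22093357 assigned reads in 21 libraries. The other two, WT 6C9 specimens 5532 and 5533, had 7011069 and 2037751, and 1 read in 5533 is worth 9.14 units. In 5533 the median correlation with the other libraries was 0.763, against at least 0.943 for every other library, and 6.21% of its signal was mitochondrial. These libraries stand apart in depth, so results that rest on them are given with and without them.

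All 7 genes were expressed in the tumours, over a wide range of levels. Per kilobase of exon, the mean normalized value over the 23 tumours was highest for CASP14, at 6309, followed by GGCT at 1351, BLMH at 403 and PADI1 at 104. PADI3 at 5.56 and PADI2 at 1.77 were near the detection limit, with PADI2 at 1 to 27 estimated reads per tumour. ASPRV1 is left out of this order because the exon length in GENCODE release 29 exceeds its whole span in the table. All 7 genes passed the filter on low values, a mean of 10 or more. PADI2 did so with 11.6 in KO tumours and 9.62 in WT tumours, so it would have failed on the WT level alone, and PADI3 was 0 in the shallow WT library 5533. PADI4, another deiminase, averaged 1.74 in KO tumours and 0.793 in WT tumours and was not tested. The symbol PADI6 was not found in the deposited table.

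The 3 proteases and GGCT had lower means in KO than in WT tumours and the 3 deiminase genes higher means, but no difference passed the threshold over all genes. limma called 0 of the 7 genes at an adjusted p under 0.05, where 0.00623% of the 16063 tested genes were called. At an unadjusted p under 0.05, ASPRV1, BLMH and GGCT passed, all 3 lower in KO tumours, and none was higher. In the same test 12.5% of all genes passed, 6.63% lower and 5.9% higher in KO tumours. The median log2 difference over the 7 genes was -0.25, beside 0.03 over all tested genes. The lowest adjusted p of the 7 was 0.227, reached by BLMH and by GGCT.

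**Figure D1:**
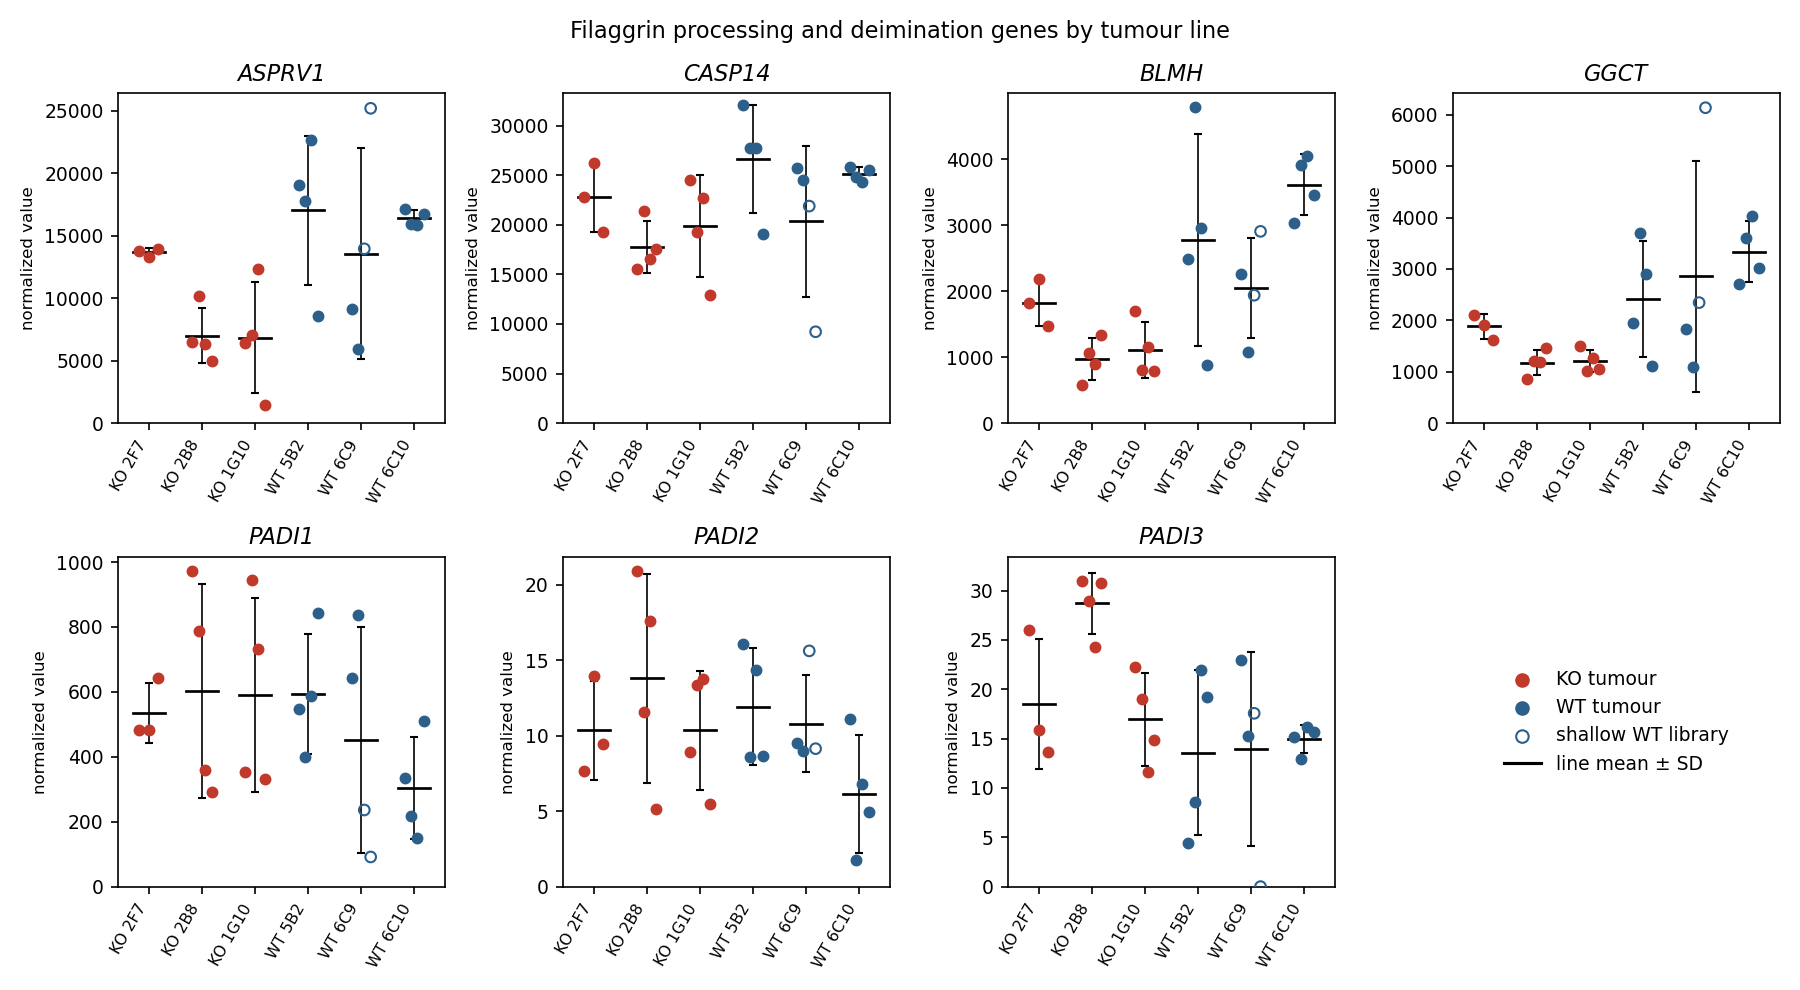
Normalized value (vertical axis, linear) of each gene in every tumour, by line, KO lines left of WT lines; points are tumours, open points the 2 shallow WT 6C9 libraries, and bars the line mean ± SD. BLMH and GGCT lie low in KO lines 2B8 and 1G10, ASPRV1 in the same lines, and PADI3 is highest in KO 2B8, where the 4 tumours lie between 24.3 and 30.9.

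ASPRV1 (ENSG00000244617, chromosome 2, 69960089 to 69961631, minus strand, hg38), the protease that trims the linkers of profilaggrin, had a lowest, median and highest value of 1485, 7084 and 13912 in KO tumours, against 5909, 16321 and 25188 in WT tumours. Every value of the 11 KO tumours was under the WT median, and 9 of 12 WT tumours lay above every KO tumour. The mean was 8744 ± 4163 in KO and 15654 ± 5642 in WT tumours (SD, n = 11 and 12), so that KO tumours had 55.9% of the WT level. The log2 difference was -0.95 (SE 0.31), with an unadjusted p of 0.00555 and an adjusted p of 0.252 by limma, rank 352 of 16063 genes, and without both shallow libraries it was -0.84 (SE 0.35, adjusted p = 0.422). The lines of the KO group were uneven: the 3 tumours of 2F7 had 13752, 13291 and 13912, those of 2B8 had 6519, 10131, 6349 and 4941, and those of 1G10 had 6393, 7084, 12323 and 1485. In WT tumours, 5B2 had 19090, 17751, 22646 and 8580, 6C9 had 9109, 5909, 13946 and 25188, and 6C10 had 17109, 15916, 15877 and 16727. The 3 tumours of 2F7 were close together and above all 8 tumours of 2B8 and 1G10, and the 3 WT tumours inside the KO range were 5529, 5530 and 5531.

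An antisense transcript gene, PCBP1-AS1, overlaps ASPRV1 on the same strand. Its value was between 1.62% and 5.71% of that of ASPRV1 in the tumours, and the sources used here do not say how reads in the overlap were divided.

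CASP14 (ENSG00000105141, chromosome 19, 15049480 to 15058293, plus strand), the caspase of cornification, had the smallest relative spread of the 7, a coefficient of variation of 20.6% in KO and 23.5% in WT tumours. Its lowest, median and highest values were 12880, 19240 and 26257 in KO tumours, against 9217, 25174 and 32054 in WT tumours. In KO tumours 10 of 11 lay below the WT median, and the lowest WT value was that of the shallow library 5533. The mean was 19890 ± 4089 in KO and 24054 ± 5645 in WT tumours, and the log2 difference was -0.25 (SE 0.16, adjusted p = 0.505 by limma). Without both shallow libraries the difference was -0.39 (SE 0.13, unadjusted p = 0.00566, adjusted p = 0.373), so these libraries move the value by more than 1.5 times. Among the other caspases, of 9 tested, 0 were called and 0 passed at an unadjusted p under 0.05, beside 12.5% of all genes. Their median log2 difference was -0.04. CASP4, an inflammatory caspase, averaged 671 ± 99.4 in KO and 709 ± 81.4 in WT tumours, and CASP2 averaged 470 ± 57.6 in KO and 436 ± 110 in WT tumours.

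BLMH (ENSG00000108578, chromosome 17, 30248203 to 30292056, minus strand), the aminopeptidase that frees amino acids from filaggrin peptides, had a lowest, median and highest value of 584, 1147 and 2181 in KO tumours, against 877, 2929 and 4784 in WT tumours. Each KO tumour was under the WT median, and 9 of 12 WT tumours lay above every KO tumour. The mean was 1253 ± 499 in KO and 2811 ± 1168 in WT tumours, 44.6% of the WT level. The log2 difference was -1.12 (SE 0.27, unadjusted p = 0.000296, adjusted p = 0.227 by limma), which ranked 13 of 16063 genes, and without both shallow libraries it was -1.11 (SE 0.30, adjusted p = 0.348). By line, KO 2F7 had 1822, 2181 and 1476, KO 2B8 had 584, 1061, 892 and 1341, and KO 1G10 had 1696, 799, 1147 and 783. The WT line 5B2 had 2492, 4784, 2953 and 877, 6C9 had 2252, 1083, 1938 and 2905, and 6C10 had 3037, 3913, 4044 and 3449. The WT tumours inside the KO range were 5529 of 5B2 and 5531 and 5532 of 6C9, and all 4 tumours of 6C10 lay above it.

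GGCT (ENSG00000006625, chromosome 7, 30496621 to 30504841, minus strand), which makes 5-oxoproline, had a lowest, median and highest value of 852, 1275 and 2101 in KO tumours, against 1098, 2801 and 6139 in WT tumours. Each KO tumour was under the WT median, and 8 of 12 WT tumours lay above every KO tumour. The mean was 1381 ± 385 in KO and 2869 ± 1408 in WT tumours, 48.1% of the WT level, with a log2 difference of -0.94 (SE 0.24, unadjusted p = 0.0006, adjusted p = 0.227 by limma), rank 32 of 16063 genes. By line, KO 2F7 had 2101, 1917 and 1626, KO 2B8 had 852, 1212, 1187 and 1462, and KO 1G10 had 1492, 1011, 1275 and 1061. The WT line 5B2 had 1946, 3708, 2894 and 1102, 6C9 had 1836, 1098, 2345 and 6139, and 6C10 had 2708, 3611, 4032 and 3010. The highest value, 6139, came from the shallow library 5533, and without both shallow libraries the log2 difference was -0.80 (SE 0.24, adjusted p = 0.348). A gene without a symbol, ENSG00000281039, overlaps GGCT on the same strand and had at most 0.105% of its value.

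This position of all 11 KO tumours under the WT median was seen for ASPRV1, BLMH and GGCT, 3 of the 7 genes, and for 2.78% of all tested genes. For the counts of WT tumours above every KO tumour, the share of all genes was not computed. With library quality weights, which gave the shallow library 5533 a weight of 0.03, limma called 4 of the 7 genes, all lower in KO tumours, where 4.59% of all genes were called and 3.01% were called lower. They were ASPRV1 (log2 difference -0.93, adjusted p = 0.0238), CASP14 (-0.37, adjusted p = 0.0381), BLMH (-1.39, adjusted p = 0.0103) and GGCT (-1.07, adjusted p = 0.0103). Over the other alternatives tried for the genotype comparison none of the 7 was called.

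The deiminase genes lay on the other side. PADI1 (ENSG00000142623, chromosome 1, 17205128 to 17246007, plus strand) had a lowest, median and highest value of 291, 483 and 972 in KO tumours, against 91.4, 454 and 843 in WT tumours. The groups overlapped over most of their range, with 7 of 11 KO tumours above the WT median, and the mean was 580 ± 249 in KO and 450 ± 254 in WT tumours. The log2 difference was 0.51 (SE 0.33, adjusted p = 0.504 by limma), and 0.23 (SE 0.31) without both shallow libraries, which hold the lowest and the fourth lowest WT value. PADI2 (ENSG00000117115, chromosome 1, 17066761 to 17119451, minus strand) ranged from 5.16 to 20.9 in KO tumours, with a median of 11.6, and from 1.73 to 16.1 in WT tumours, with a median of 9.05. Its log2 difference was 0.28 (SE 0.30, adjusted p = 0.645), and it rests on few reads. It was 0.14 with a pseudocount of 10, 0.11 to 0.37 on leaving out 1 tumour, lowest without WT 6C10 specimen 5535, 0.47 without line WT 5B2 and 0.55 with library quality weights. Without line WT 6C10 the PADI2 difference changed side, at -0.03.

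PADI3 (ENSG00000142619, chromosome 1, 17249098 to 17284233, plus strand), known for deiminating trichohyalin and S100A3 in the hair follicle, had the largest positive difference of the 7 on the log2(value + 1) scale. With a pseudocount of 10 it was 0.42, under the 0.50 of PADI1. Its lowest, median and highest values were 11.6, 22.3 and 30.9 in KO tumours, against 0, 15.5 and 22.9 in WT tumours. In KO tumours 8 of 11 lay above the WT median and 5 of 11 above every WT tumour. The mean was 21.6 ± 7.07 in KO and 14.2 ± 6.81 in WT tumours, with a log2 difference of 0.82 (SE 0.40, unadjusted p = 0.0534, adjusted p = 0.407 by limma). The WT value of 0 came from library 5533, where 1 read is worth 9.14 units, and without both shallow libraries the difference was 0.50 (SE 0.27, adjusted p = 0.518). The tumours of KO 2B8 had 30.9, 28.9, 24.3 and 30.8, those of KO 2F7 had 26.0, 15.8 and 13.6, and those of KO 1G10 had 22.3, 19.0, 11.6 and 14.8. All 4 tumours of 2B8 thus lay above every WT tumour, against 1 of 3 in 2F7 and 0 of 4 in 1G10. The share of all genes with such counts was not computed, and PADI3 had 11 to 41.7 estimated reads per KO tumour.

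Because each line has 1 genotype, the line is the unit that carries the knockout, and the means of 3 KO and 3 WT lines were compared with an exact two-sided permutation test, whose smallest possible p is 0.1. For BLMH the mean log2 value was 10.82 for 2F7, 9.86 for 2B8 and 10.04 for 1G10, against 11.20 for 5B2, 10.91 for 6C9 and 11.81 for 6C10, without overlap between the genotypes (exact permutation p = 0.1). GGCT had 10.87, 10.18 and 10.22 in those KO lines and 11.10, 11.18 and 11.69 in those WT lines, again without overlap (exact permutation p = 0.1). PADI3 had 4.23, 4.89 and 4.13 in the KO lines and 3.64, 3.20 and 3.99 in the WT lines, with all KO lines above (exact permutation p = 0.1). Without both shallow libraries the lines overlapped for all 3 of these genes, with a difference of line means of -0.97 for BLMH (exact permutation p = 0.2), -0.66 for GGCT (0.2) and 0.44 for PADI3 (0.3). Leaving out WT 6C9 specimen 5533 alone also ended the separation of all 3, as did KO 2F7 specimen 5540 for BLMH, WT 5B2 specimen 5527 for GGCT, and KO 2F7 specimen 5538 or KO 1G10 specimen 5546 for PADI3. Line means did not overlap for 18.6% of all tested genes, with the KO lines below in 8.87% and above in 9.77%. The lines overlapped for ASPRV1 (exact permutation p = 0.2), CASP14 (0.3), PADI1 (0.4) and PADI2 (0.7). Leaving out both shallow libraries, or WT 6C9 specimen 5533 alone, put all 3 KO lines below the WT lines for CASP14, with a difference of -0.37 without both (exact permutation p = 0.1). Leaving out WT 6C9 specimen 5531 separated the lines for ASPRV1, and leaving out WT 5B2 specimen 5529 separated them for PADI1.

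Of the 3 KO lines, 2F7 had the smallest difference from WT for ASPRV1, CASP14, BLMH and GGCT. Against the mean of the WT lines, the log2 difference of ASPRV1 was -0.09 in 2F7 (SE 0.44), -1.11 in 2B8 (SE 0.39) and -1.44 in 1G10 (SE 0.39). BLMH had -0.49 in 2F7 (SE 0.36), -1.45 in 2B8 (SE 0.32) and -1.27 in 1G10 (SE 0.32), and GGCT had -0.45 (SE 0.35), -1.15 (SE 0.31) and -1.10 (SE 0.31) in the same lines. The PADI1 estimates were nearly the same in all 3 KO lines, 0.51 in 2F7 (SE 0.51), 0.51 in 2B8 (SE 0.46) and 0.52 in 1G10 (SE 0.46). They were 0.13 in each line without both shallow libraries, with library quality weights they were 0.15, 0.32 and 0.53, and on leaving out 1 tumour the range among KO lines was between 0.006 and 0.29. CASP14 had -0.04, -0.39 and -0.27 and PADI3 had 0.62, 1.27 and 0.51 in 2F7, 2B8 and 1G10. These contrasts share the WT tumours, and leaving out WT 5B2 specimen 5529 brought BLMH past the threshold in 2B8 (-1.61, adjusted p = 0.0277) and in 1G10 (-1.43, adjusted p = 0.0458). On leaving out 1 tumour the ASPRV1 difference in 1G10 lay between -1.84 and -0.82, and at -0.82, without KO 1G10 specimen 5549, it was nearer to 0 than that of 2B8. Without library weights and with all tumours, limma called 0 genes in each of these contrasts, and at an unadjusted p under 0.05 the 7 genes gave 0 in 2F7, 4 in 2B8 and 3 in 1G10, where 2.48%, 8.19% and 9.66% of all genes passed. With library quality weights, estimated with 1 convergence warning, 2 of the 7 genes were called in 2F7, 5 in 2B8 and 3 in 1G10, where 49.2%, 6.51% and 2.03% of all genes were called. In 2B8 they were ASPRV1 (-0.98, adjusted p = 0.0149), CASP14 (-0.56, 0.00851), BLMH (-1.60, 0.00522), GGCT (-1.10, 0.00629) and PADI3 (0.91, 0.0309). In 1G10 they were ASPRV1 (-1.004, adjusted p = 0.0408), BLMH (-1.39, 0.0283) and GGCT (-1.05, 0.0266). In 2F7 they were GGCT (-0.35, adjusted p = 0.0163) and PADI2 (0.74, 0.00859). Without weights PADI2 had 0.20 in 2F7 (SE 0.44), and -0.02 without KO 2F7 specimen 5539. PADI2 rests on few reads and passed the filter only through its KO level, so its call is not read as a difference. The targeted gene CACFD1 had -0.12 in 2F7 (SE 0.14), -0.49 in 2B8 (SE 0.13) and -0.67 in 1G10 (SE 0.13).

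**Figure D2:**
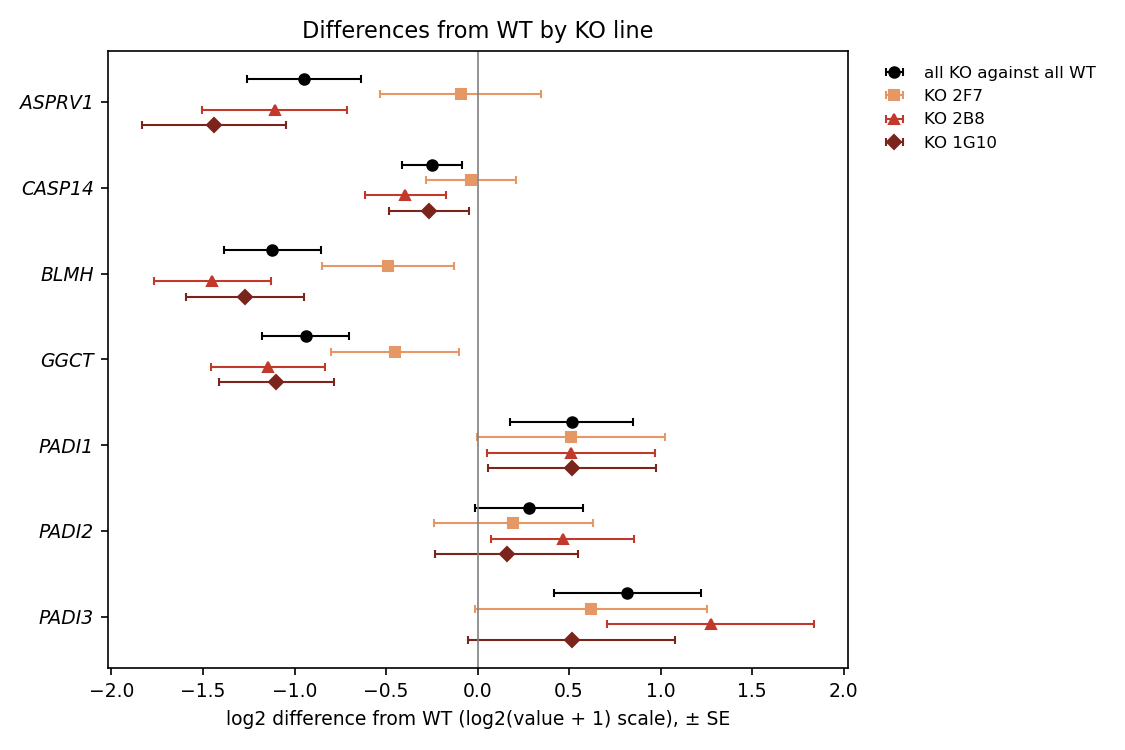
Log2 difference from WT (horizontal axis, log2(value + 1) scale) of each gene for all KO tumours and for each KO line; points are limma estimates and bars the SE. For ASPRV1, BLMH and GGCT the 2F7 estimate is the one nearest to 0, and for PADI1 the 3 lines lie between 0.51 and 0.52.

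The differences among the KO lines themselves were tested with limma's F test. ASPRV1 had the widest range of KO line means, 1.35 on the log2 scale, with an unadjusted p of 0.0496 and an adjusted p of 1. BLMH followed with 0.96 (unadjusted p = 0.0874), PADI3 with 0.76 and GGCT with 0.69, and PADI1 had 0.01. No gene of the table was called among KO lines, where 356 genes (2.22%) passed at an unadjusted p under 0.05. With library quality weights 5 of the 7 genes were called among KO lines, where 40.2% of all genes were: ASPRV1 (range 1.01, adjusted p = 0.00017), CASP14 (0.58, 0.000139), BLMH (1.27, 0.000169), GGCT (0.75, 0.000771) and PADI3 (0.81, 0.0151), and BLMH then had the widest range. Among WT lines the weights brought GGCT past the threshold (range 1.03, adjusted p = 0.0283), where 11.9% of all genes were called. Among WT lines with no weights the range was 1.07 for PADI1, 1.00 for PADI2 and 0.90 for BLMH (adjusted p = 0.498), and 0 of the 7 were called and 0 passed at an unadjusted p under 0.05, beside 0.00623% and 10.3% of all genes. The WT range of BLMH came from 6C10, whose mean of 3611 ± 460 compares with 2777 ± 1607 in 5B2 and 2044 ± 757 in 6C9 (SD, n = 4 each). For BLMH the range among KO lines was 0.96 and that among WT lines 0.90 on the log2 scale, and the ranges were not compared with a test.

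BLMH and GGCT, which lie on different chromosomes, varied together from tumour to tumour. Their Pearson r of log2 values over the 23 tumours was 0.92 and Spearman's rho 0.95 (permutation p = 1e-05, the smallest that 100000 permutations can give, adjusted p = 0.00021 over 21 pairs). Within KO tumours r was 0.96 and within WT tumours 0.85, and without the 2 tumours farthest from the median it was 0.91. Without both shallow libraries r was 0.98, and there each of the pair was the closest of 12720 other protein-coding genes to its partner. This mutual first rank was also found within the 11 KO tumours and, without both shallow libraries, in deviations from line means (r = 0.96), which leave out the differences between genotypes and lines. With all 23 tumours GGCT ranked 3 for BLMH and BLMH ranked 7 for GGCT, and within all 12 WT tumours the ranks were 58 and 131. Within the 10 WT tumours without the shallow libraries both ranks were 5, so the shallow libraries move these ranks.

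**Figure D3:**
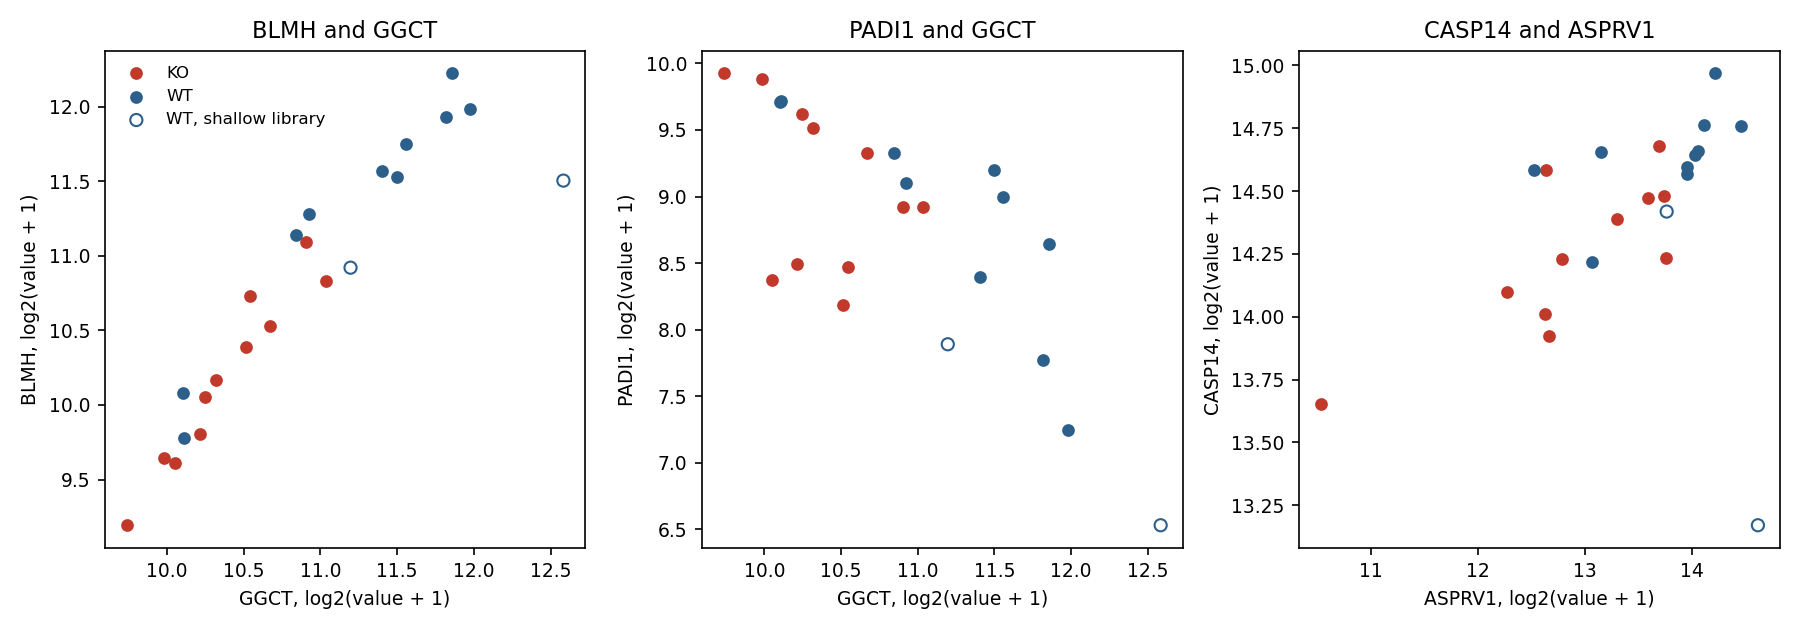
Log2(value + 1) of 3 pairs of genes, with 1 point per tumour, KO in red and WT in blue, open points for the shallow WT libraries. BLMH rises with GGCT (r = 0.92), PADI1 runs against GGCT (r = -0.73), and CASP14 follows ASPRV1 except in the shallow library 5533 (r = 0.38 with it and 0.80 without both shallow libraries).

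Of the 21 pairs among the 7 genes, 7 passed an adjusted p under 0.05 by permutation of Pearson's r, 4 of them positive and 3 negative. The permutations shuffled tumours without regard to line or genotype. ASPRV1 went with BLMH (r = 0.74, rho = 0.81) and with GGCT (r = 0.74, rho = 0.85), each at an adjusted p of 0.00021. Without the 2 farthest tumours these values were 0.79 and 0.85, within KO tumours 0.53 and 0.54, within WT tumours 0.75 and 0.84, and without both shallow libraries 0.73 and 0.72. PADI1 went against GGCT (r = -0.73, rho = -0.64, adjusted p = 0.00058), with -0.39 within KO and -0.84 within WT tumours and -0.55 without the 2 farthest tumours, and -0.63 without both shallow libraries. It also went against BLMH (r = -0.55, rho = -0.54, adjusted p = 0.022), with -0.38 within KO and -0.55 within WT tumours and -0.53 without the 2 farthest. That call was lost without WT 6C10 specimen 5536 (r = -0.49, adjusted p = 0.053) or KO 2B8 specimen 5542 (r = -0.50, adjusted p = 0.061). GGCT against PADI3 (r = -0.58, rho = -0.44, adjusted p = 0.011) and PADI1 with PADI3 (r = 0.52, rho = 0.29, adjusted p = 0.047) rested on the shallow library 5533. Without both shallow libraries they were -0.37 and 0.12 (adjusted permutation p = 0.15 and 0.8), and PADI1 with PADI3 also lost its call on leaving out any of several other single tumours. By Pearson's r, ASPRV1 against PADI3 (r = -0.44) and BLMH against PADI2 (r = -0.38) passed only without KO 1G10 specimen 5549. They were then -0.60 and -0.48 (adjusted permutation p = 0.0025 and 0.049). By Spearman's rho, ASPRV1 against PADI3 passed with all 23 tumours (rho = -0.54, adjusted permutation p = 0.028). BLMH against PADI2 did not (rho = -0.30, adjusted permutation p = 0.24).

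Without both shallow libraries 10 pairs passed by Pearson's r. CASP14 then went with ASPRV1 (r = 0.80, adjusted p = 0.00021), BLMH (0.78, adjusted p = 0.00021) and GGCT (0.67, adjusted p = 0.0031), against 0.38, 0.46 and 0.12 over all 23 tumours. By Spearman's rho these relations of CASP14 already passed over all 23 tumours, at 0.53, 0.70 and 0.50 (adjusted permutation p = 0.029, 0.0012 and 0.035). PADI1 and PADI2, which lie in 1 cluster of deiminase genes on chromosome 1, had r = 0.57 (adjusted p = 0.017), against 0.40 over all tumours. CASP14 and PADI3 had r = -0.49 (adjusted p = 0.05), against 0.34 over all tumours. In these 21 tumours all 6 pairs among ASPRV1, CASP14, BLMH and GGCT were positive, between 0.67 and 0.98, and none of the 12 pairs of these genes with a deiminase gene was above 0.07.

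**Figure D4:**
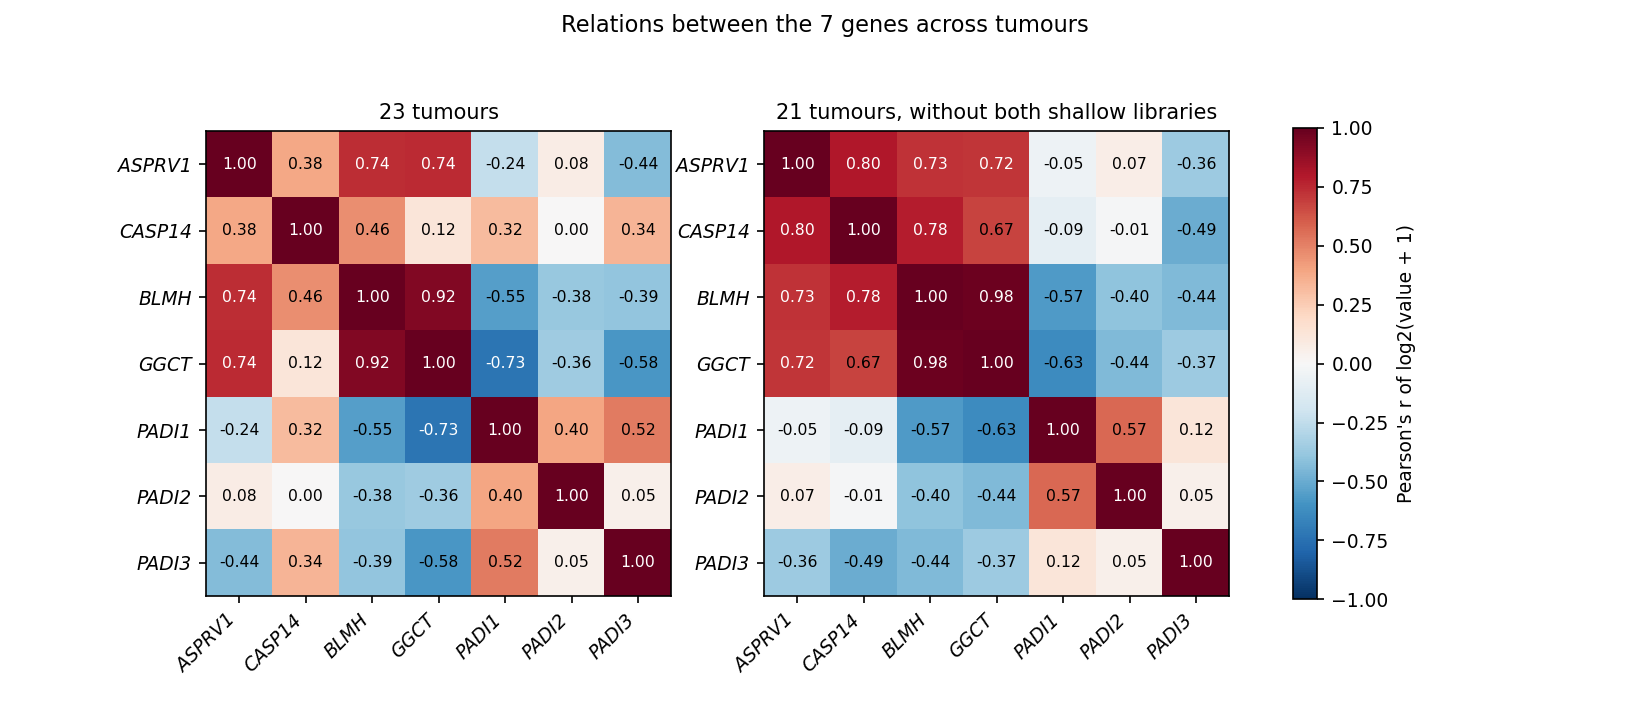
Pearson's r of log2(value + 1) for each pair of genes over 23 tumours (left) and over the 21 tumours without both shallow libraries (right), on a colour scale from -1 to 1. ASPRV1, CASP14, BLMH and GGCT form a block of positive values on the right, where CASP14 gains most, while PADI1 is negative with BLMH and GGCT on both sides.

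The genes of most similar pattern over the 23 tumours were looked up among 12721 protein-coding symbols, as a description with no test. For ASPRV1 they were DMKN (r = 0.98), a secreted protein of suprabasal keratinocytes, LY6G6C (0.98) and GLTP (0.97), a glycolipid transfer protein. For CASP14 they were KLF3 (0.93), NWD2 (0.92) and CLCN3 (0.91), and without the shallow libraries the closest was KLK7 (0.92), a protease of the cornified layer. For BLMH they were TPRG1 (0.94), DIO2 (0.94), which activates thyroid hormone, and GGCT (0.92). For GGCT they were CRNN (0.94), a relative of filaggrin, AADACL2 (0.93) and METTL7A (0.93). CRNN averaged 6.82 ± 12.9 in KO and 26.2 ± 34.4 in WT tumours, so its pattern rests on few reads. The pattern of PADI1 was most like those of ULK1 (0.92), a kinase that starts autophagy, SLC6A8 (0.89), a creatine transporter, and SMTN (0.89). For PADI3 they were CLSTN3 (0.93), FMNL1 (0.92) and ADAMTS6 (0.92), which had 0.76, 0.76 and 0.78 without the shallow libraries. The closest to PADI2 was BMP6, with only 0.73, followed by TUBB2A (0.67) and NELL2 (0.66).

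Filaggrin itself (FLG) ranged from 2719 to 147943 in KO tumours and from 19750 to 139602 in WT tumours. It averaged 48267 ± 44178 in KO and 89015 ± 43904 in WT tumours (log2 difference -1.20, SE 0.50, adjusted p = 0.339 by limma). Across tumours FLG went with ASPRV1 (r = 0.88, rho = 0.78), BLMH (0.79, rho = 0.79), GGCT (0.67, rho = 0.78) and CASP14 (0.65, rho = 0.72), at adjusted permutation p-values between 0.0001 and 0.0061 over 42 relations. Within KO tumours r was 0.90, 0.76, 0.74 and 0.90 for ASPRV1, BLMH, GGCT and CASP14, and within WT tumours r was 0.74, 0.79, 0.57 and 0.42. Without the 2 farthest tumours they were 0.80, 0.85, 0.74 and 0.56, and without both shallow libraries 0.93, 0.81, 0.78 and 0.85. The deiminase genes gave -0.20 for PADI1, -0.02 for PADI2 and -0.14 for PADI3, none past an adjusted p of 0.05. The 42 relations, of the 7 genes with 6 measures, were added after the data were seen.

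Keratinocyte differentiation markers were read in the same tumours. The summed value of the 6 suprabasal markers (KRT1, KRT10, DSG1, DSC1, KRTDAP and SBSN) was between 32623 and 345274 in KO tumours and between 153888 and 470167 in WT tumours. Of these 6, 0 were called, 4 were lower at an unadjusted p under 0.05 by limma, and the median log2 difference was -0.76. Of all tested genes, 6.63% were lower and 5.9% higher at an unadjusted p under 0.05. KRT10 averaged 103839 ± 47325 in KO and 168158 ± 53200 in WT tumours, and KRT1 averaged 44143 ± 24216 in KO and 79927 ± 26039 in WT tumours. The 6 basal markers, KRT5 and KRT14 among them, all had positive differences, with a median of 0.37, none called and 3 higher at an unadjusted p under 0.05. KRT14 averaged 344913 ± 40380 in KO and 289082 ± 61231 in WT tumours, and KRT5 averaged 319257 ± 41150 in KO and 258927 ± 59363 in WT tumours. The mean log2 value of the suprabasal markers went with ASPRV1 (r = 0.89, rho = 0.82), BLMH (0.69, rho = 0.82), CASP14 (0.65, rho = 0.82) and GGCT (0.56, rho = 0.74), at adjusted permutation p-values of 0.0001, 0.00025, 0.013 and 0.011. Within KO tumours r was 0.93, 0.56, 0.85 and 0.48 for ASPRV1, BLMH, CASP14 and GGCT, within WT tumours 0.72, 0.81, 0.50 and 0.52, without the 2 farthest tumours 0.78, 0.80, 0.58 and 0.63, and without both shallow libraries 0.94, 0.71, 0.85 and 0.65. PADI1 (r = -0.06), PADI2 (0.11) and PADI3 (-0.16) had no relation to the suprabasal markers past an adjusted p of 0.05 over all tumours. For PADI3 rho was -0.48 (adjusted permutation p = 0.062). Without both shallow libraries its rho was -0.55 (adjusted permutation p = 0.026) and its r -0.32 (adjusted permutation p = 0.27), and within KO tumours r was 0.02. The mean log2 value of the basal markers ran against GGCT (r = -0.80, rho = -0.86, adjusted permutation p = 0.0001; -0.73 within KO and -0.75 within WT tumours) and ASPRV1 (r = -0.75, rho = -0.88, adjusted permutation p = 0.0024; -0.89 within KO and -0.72 within WT tumours). Without the 2 farthest tumours r was -0.76 for GGCT and -0.85 for ASPRV1, and without both shallow libraries -0.77 and -0.87. BLMH also ran against the basal markers (r = -0.58, rho = -0.74, adjusted permutation p = 0.0058; -0.65 within KO and -0.34 within WT tumours), with -0.70 without the 2 farthest tumours and -0.72 without both shallow libraries. PADI1 (r = 0.60, rho = 0.45, adjusted permutation p = 0.012) and PADI3 (r = 0.70, rho = 0.35, adjusted permutation p = 0.021) went with them, but within KO tumours r was -0.23 and 0.15, within WT tumours 0.76 and 0.72, without the 2 farthest tumours 0.40 and 0.27, and without both shallow libraries 0.23 and 0.19 (adjusted permutation p = 0.49 and 0.53), so both relations rest on these libraries. CASP14 ran against the basal markers only without them (r = -0.60, adjusted permutation p = 0.012, against 0.22 with all tumours). In bulk tumours, fewer cells of a type and less RNA per cell cannot be told apart.

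To set each enzyme gene beside the differentiation genes of the same tumour, the mean log2 value of the suprabasal markers was subtracted, and the line means were compared. Relative to the markers, the KO minus WT difference of line means was -0.24 for ASPRV1 (exact permutation p = 0.3), -0.43 for BLMH (0.2) and -0.26 for GGCT (0.3), against -0.88, -1.07 and -0.90 before subtraction. CASP14 changed side, at 0.40 (exact permutation p = 0.1), against -0.23 before. The deiminase genes were higher relative to the markers, by 1.15 for PADI1 (exact permutation p = 0.1), 0.91 for PADI2 (0.2) and 1.44 for PADI3 (0.1). The relative differences without both shallow libraries were -0.08 for ASPRV1, 0.21 for CASP14, -0.39 for BLMH, -0.08 for GGCT, 0.71 for PADI1, 0.91 for PADI2 and 1.01 for PADI3, with exact permutation p-values between 0.2 and 1. A p of 0.1 is the smallest this test allows, and the marker score itself differed by -0.64 (exact permutation p = 0.2). Subtracting it therefore raises the KO minus WT difference of any gene by the same amount. Before subtraction the median log2 difference over all tested genes was 0.03. The share of all genes whose lines separate on this ratio was not computed. With FLG in place of the markers the differences were 0.20 for ASPRV1, 0.01 for BLMH and 0.18 for GGCT, on the other side of 0, and 0.85 for CASP14, 1.60 for PADI1, 1.36 for PADI2 and 1.89 for PADI3. FLG itself differed by -1.08 between line means (exact permutation p = 0.3).

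**Figure D5:**
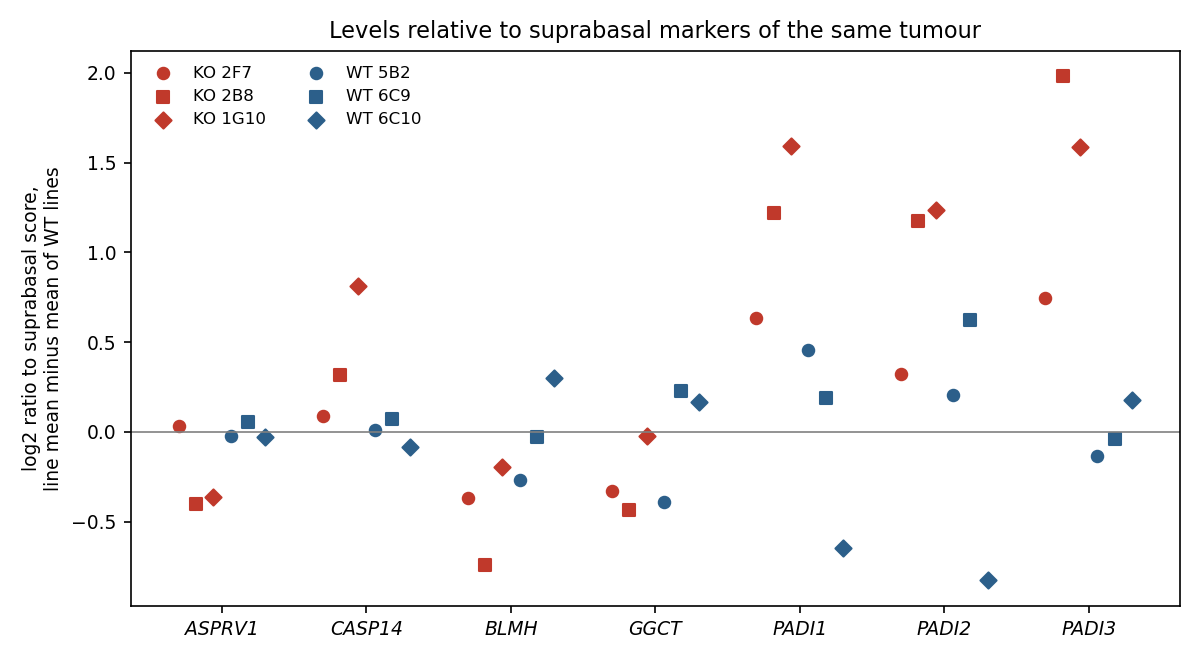
Log2 ratio of each gene to the suprabasal marker score of the same tumour, as line means minus the mean of the WT lines (vertical axis); red symbols are KO lines and blue symbols WT lines. With all 23 tumours, CASP14, PADI1 and PADI3 have all 3 KO lines above the WT lines, whereas ASPRV1, BLMH and GGCT have KO lines among or below the WT lines. Without both shallow libraries the lines overlap for CASP14, PADI1 and PADI3 (exact permutation p = 0.5, 0.4 and 0.2). The share of all genes whose lines separate on this ratio was not computed. The score is lower on average in KO lines, which raises the KO minus WT ratio of any gene alike.

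Other genes of the same pathway were read from lists, each as counts by limma, with none of their members called in either direction. Beside these counts, 6.63% of all tested genes were lower and 5.9% higher at an unadjusted p under 0.05. The lists were chosen with earlier results of these data known. Among the 7 filaggrin-like S100 fused-type proteins, 5 differences were negative, 3 at an unadjusted p under 0.05, and the median was -0.64. TCHH, trichohyalin, averaged 26431 ± 11045 in KO and 21892 ± 9191 in WT tumours (log2 difference 0.30, SE 0.30), unlike FLG. Of 7 other proteases that cut profilaggrin, 6 were negative, 3 at an unadjusted p under 0.05, with a median of -0.13. KLK5, a kallikrein of the cornified layer, averaged 2523 ± 1720 in KO and 6913 ± 3636 in WT tumours (log2 difference -1.54, SE 0.43, adjusted p = 0.227), and CAPN1, calpain-1, averaged 4851 ± 243 in KO and 4569 ± 790 in WT tumours (log2 difference 0.11, SE 0.10). Of 7 inhibitors of those proteases, 5 were negative, 3 at an unadjusted p under 0.05, with a median of -0.55. CSTA, cystatin A, averaged 9706 ± 3680 in KO and 14391 ± 7029 in WT tumours, and SPINK5, the inhibitor of kallikreins, averaged 6028 ± 2575 in KO and 11320 ± 6022 in WT tumours.

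Downstream of filaggrin breakdown, 4 enzyme genes listed with its amino acid products were tested. Of these, 2 were lower at an unadjusted p under 0.05, with 2 positive and 2 negative differences and a median of -0.90. The shares of all tested genes, here and for the lists that follow, were 6.63% lower and 5.9% higher. HAL, histidase, which makes urocanic acid from histidine, averaged 740 ± 443 in KO and 2308 ± 1125 in WT tumours (log2 difference -1.85, SE 0.51, adjusted p = 0.227), and ARG1, arginase, averaged 176 ± 136 in KO and 681 ± 390 in WT tumours (-2.20, SE 0.63, adjusted p = 0.227). The positive differences were those of OPLAH, 5-oxoprolinase (0.28, SE 0.64), and GGACT (0.04, SE 0.33), and OPLAH averaged 136 ± 67.5 in KO and 146 ± 66.0 in WT tumours, so its mean and its log2 difference point opposite ways. Around GGCT, the 8 tested genes of the gamma-glutamyl cycle were split, 4 positive and 4 negative, with a median of -0.05. GGT6, a gamma-glutamyl transferase family member, averaged 841 ± 257 in KO and 1307 ± 445 in WT tumours, and GSS, glutathione synthetase, averaged 699 ± 134 in KO and 580 ± 139 in WT tumours. GGT6 was the 1 lower and GSS the 1 higher at an unadjusted p under 0.05. Of the 7 epidermal substrates of deimination, 5 were negative, 3 lower and 1 higher at an unadjusted p under 0.05, with a median of -0.91. KRT10 and KRT1, whose values stand above, are the most abundant of them, while S100A3, a PADI3 substrate named here after its values were seen, averaged 20.2 ± 20.4 in KO and 8.73 ± 5.43 in WT tumours (log2 difference 0.96, SE 0.39, adjusted p = 0.329).

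Markers of other cells and of growth were measured beside these genes. Of 5 tested fibroblast markers all differences were positive, with a median of 0.40 and none past an unadjusted p of 0.05. Their summed value was between 3813 and 28164 in KO tumours and between 2247 and 16737 in WT tumours. COL1A1, a collagen gene, averaged 7008 ± 4322 in KO and 5013 ± 2663 in WT tumours, and COL1A2 averaged 2812 ± 1731 in KO and 2232 ± 1123 in WT tumours. The mean log2 fibroblast value ran against GGCT (r = -0.69, rho = -0.64, adjusted permutation p = 0.00084; -0.67 within KO and -0.75 within WT tumours) and without the 2 farthest tumours r was -0.47, and -0.56 without both shallow libraries. It also ran against ASPRV1 (r = -0.61, rho = -0.61, adjusted permutation p = 0.013; -0.50 within KO and -0.74 within WT tumours) and BLMH (r = -0.54, rho = -0.52, adjusted permutation p = 0.013; -0.71 within KO and -0.40 within WT tumours). Without the 2 farthest tumours r was -0.60 for ASPRV1 and -0.46 for BLMH, and without both shallow libraries -0.58 and -0.59. PADI1 (r = 0.63, rho = 0.45, adjusted permutation p = 0.0055) and PADI3 (r = 0.70, rho = 0.36, adjusted permutation p = 0.0069) went with the fibroblast markers, at 0.27 and 0.45 within KO tumours, 0.77 and 0.79 within WT tumours, 0.30 and 0.22 without the 2 farthest tumours and 0.35 and 0.37 without both shallow libraries (adjusted permutation p = 0.24 and 0.2). CASP14 ran against them only without both shallow libraries (r = -0.59, adjusted permutation p = 0.015, against 0.13 with all tumours). The share of mitochondrial signal ran against CASP14 (r = -0.60, rho = -0.28, adjusted permutation p = 0.025), with -0.30 within KO tumours, -0.89 within WT tumours, -0.32 without the 2 farthest tumours and -0.15 without both shallow libraries. The skeletal muscle markers, summed, were between 121 and 9329 in KO tumours and between 20.4 and 10091 in WT tumours, and their mean log2 value ran against PADI1 (r = -0.69, rho = -0.74, adjusted permutation p = 0.00084). That relation was -0.66 within KO and -0.76 within WT tumours, -0.62 without the 2 farthest tumours and -0.67 without both shallow libraries. ACTA1, skeletal actin, averaged 950 ± 1531 in KO and 1442 ± 1729 in WT tumours, and MYH1 averaged 397 ± 678 in KO and 349 ± 468 in WT tumours. The tumour cells are human and the host is a mouse, and how mouse reads were treated is not stated. Mouse reads assigned to human genes and expression by the tumour cells cannot be told apart in these marker values. They are therefore no direct measure of host cells. The part of fibroblasts and muscle in the levels of the enzyme genes was not tested.

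Of the endothelial markers, VWF passed the filter and averaged 87.3 ± 45.8 in KO and 142 ± 45.1 in WT tumours (log2 difference -0.77, SE 0.25, adjusted p = 0.245), while the defining marker PECAM1 was at or near 0, at most 1.86 in KO and 3.90 in WT tumours. The summed endothelial values were between 71.2 and 204 in KO tumours and between 89.3 and 223 in WT tumours. Of the macrophage and neutrophil markers, CD68 averaged 429 ± 65.1 in KO and 466 ± 68.4 in WT tumours and CSF1R averaged 33.3 ± 16.6 in KO and 25.2 ± 9.09 in WT tumours, with PTPRC at most 21.8 in KO and 10.2 in WT tumours. Their summed values were between 377 and 572 in KO tumours and between 428 and 642 in WT tumours. The limit from mouse reads holds for these endothelial, macrophage and neutrophil markers too. The 6 proliferation markers had a median log2 difference of 0.10, none past an unadjusted p of 0.05. PCNA averaged 856 ± 283 in KO and 783 ± 154 in WT tumours, and MKI67 averaged 783 ± 491 in KO and 526 ± 221 in WT tumours.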

How the data were processed

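Poly(A) RNA-seq of 23 tumours was analysed from 1 deposited table that holds a signal per gene and tumour, a read abundance already normalized by the authors. The submitters' processing notes list hg38 as the build and STAR and DESeq2 as the authors' tools, with no version or role, and nothing used here states how mouse reads or strand were treated. Low values repeat in steps of 1 read, but in each library only 70.6% to 83.8% of them (20 reads or fewer) came out whole at a tolerance of 0.02 reads, so no count test was used. No 2 libraries agreed within sampling noise.

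Values were analysed as log2(value + 1), which understates changes of low genes. The 16063 genes with a mean of at least 10 were tested in R 4.3.3 with limma 3.58.1, using a trended prior, the line as a random block (consensus correlation 0.0077) and Benjamini-Hochberg adjustment at 0.05. Lines were compared as fixed terms, line means with exact two-sided permutation tests, and relations with 100000 permutations (scipy 1.17.1). The permutations for relations shuffled all tumours freely, so their p-values do not allow for line or genotype. The script was tested on simulated data. The 7 genes are named in full. For each, the 3 genes of highest Pearson r are named, and of each list the members past the threshold or else the 2 with the highest mean. The genes and lists were chosen with earlier results of these data known. Specimen numbers mark single tumours and pair none.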

Additional observations from a re-analysis of the deposited data

Results flagged for a closer look

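Of 35 groups, each the 4 tumours of 1 line for 1 gene, 1 group held a tumour that stood far from the others. PADI2 in WT 6C9 specimen 5532 was 15.6, and its gap to the nearest of the other 3 tumours took 0.92 of the range of the line, above Dixon's 95% critical value for 4 samples. Chance gives such a gap in about 1 in 20 groups. The library is 1 of the 2 shallow ones, and the value corresponds to 8 reads.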

How the results depend on the processing

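No paired analysis was possible because specimen numbers are unique to a tumour and replicate numbers only name tumours within a line. In the genotype comparison 1 gene was called, against 0 with libraries rescaled to the same total, without both shallow libraries, and without line KO 2B8, KO 1G10, WT 5B2 or WT 6C10, 738 with library quality weights, and 0 to 2 on leaving out 1 tumour. With the weights, whose estimate gave 1 convergence warning in the line model, the calls were 1919 among WT lines, 6459 among KO lines, 7906 for 2F7, 1045 for 2B8 and 326 for 1G10. With no filter on low values, 2F7 and 2B8 had 1 call each. Leaving out 1 tumour gave 0 to 2 calls among WT lines, 0 to 17 for 2B8 and 0 to 26 for 1G10. Without WT 5B2 specimen 5529, BLMH was called in 2B8 (-1.61, adjusted p = 0.0277) and 1G10 (-1.43, adjusted p = 0.0458). Leaving out 1 tumour left 5 to 9 related pairs. PADI2 changed side without line WT 6C10 (-0.0307), and could not be tested without line KO 2B8, where it fell under the filter. In 2F7, CASP14 changed side with rescaled totals (0.0229) and weights (0.0243), and ranged from -0.151 to 0.0798 on leaving out 1 tumour. There ASPRV1 changed side without both shallow libraries (0.133) and with weights (0.00173), and leaving out 1 tumour gave -0.202 to 0.0303 for ASPRV1 and -0.0227 to 0.375 for PADI2. Relative to FLG in place of suprabasal markers, ASPRV1 (0.203), BLMH (0.0128) and GGCT (0.184) changed side. CASP14 with PADI3 was -0.492 without both shallow libraries, and -0.492 to 0.489 on leaving out 1 tumour, the negative value without WT 6C9 specimen 5533. The causes were not tested. PADI2 and PADI3 are limited by depth, since they rest on few reads.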
